A study of Mus musculus with 8 samples.

Results

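Major histocompatibility complex (MHC) class I and peptide loading genes were described here through 8 genes: H2-K1, H2-D1, B2m, Tap1, Tap2, Tapbp, Calr and Canx. They were chosen by name, and every probe set that the platform annotation maps to one of these symbols alone was taken. This gave 16 of the 12422 probe sets on the arrays that are no control probe sets: 3 each for H2-K1, H2-D1 and Tapbp, 2 each for Tap1 and Canx, and 1 each for B2m, Tap2 and Calr. A filter on dim probe sets kept 8281 for testing, among them 15 of the 16, and the Calr probe set was left out by it.

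The arrays measured total RNA of mouse double positive thymocytes, immature T cells that carry both CD4 and CD8, in a series on engaging the T cell receptor (TCR) with antibodies. There were 4 groups of 2 arrays each: Vbeta5 and Valpha2, named after variable segments of the receptor's beta and alpha chain, an overnight control and a control. All groups share the cell type; the sources used here give no strain, genotype, age, antibody clone, dose or time, apart from the word overnight for 1 control. Whether the 2 arrays of a group stand for separate cultures or mice is not stated either, so each p-value reflects array-to-array spread that may be technical.

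Class I molecules show peptides from inside the cell to CD8 T cells. A polymorphic heavy chain, such as the products of H2-K1 and H2-D1, pairs with beta-2 microglobulin, the product of B2m. The peptide enters the endoplasmic reticulum (ER) through a transporter made of Tap1 and Tap2. The empty heavy chain is folded with the lectin chaperone calnexin (Canx), then held near the transporter by calreticulin (Calr) and tapasin (Tapbp) until a peptide fits. Double positive thymocytes are known for low surface class I, and their more mature successors for more of it.

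Signals are linear and are given as the authors deposited them. Each array had a 2% trimmed mean between 250.14 and 250.16 and a median signal between 73.65 and 110.25. Gapdh control probe sets give a sign of RNA quality, and their 3' over 5' signal, as a log2 ratio, was 0.48 on Vbeta5 array 1, 1.72 on Valpha2 array 1 and 0.95 on overnight control array 1, against -0.28 to -0.09 on the other 5 arrays. Of 11 fixed markers of double positive thymocytes, 9 were on the arrays, and their summed signal was 16972 to 29559 on Vbeta5, 47616 to 59254 on Valpha2, 56397 to 57991 on overnight control and 44460 to 48306 on control arrays. In such bulk RNA, fewer cells of a type and less RNA per cell cannot be told apart, and the part of these differences in the class I results was not tested. Differences below are on the log2(signal + 17) scale from limma, with the standard error (SE) of the fit. The two-sided p was adjusted by Benjamini-Hochberg over all 8281 probe sets tested, and a probe set passed at an adjusted p under 0.05. Of the 9 double positive markers, Rag1 and Rag2 passed as lower for Vbeta5 against overnight control (0.616% of all tested passed). Cd8a and Rag2 did so against Valpha2 (0.278% of all), and Cd4, Cd8a and Rag2 against control (1.61% of all). The median differences of the 9 were -1.45, -1.34 and -1.12 in that order, and 0 passed as higher.

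An H2-K1 probe set of the class I family type, 93120_f_at, rose with Vbeta5, while 97700_at, the H2-K1 probe set without the family mark f, passed in no comparison. The first, the brightest of the gene, read 2723.0 and 3684.6 on Vbeta5, 1307.5 and 1199.7 on Valpha2, 1271.0 and 977.0 on overnight control, and 838.5 and 897.6 on control arrays. Both Vbeta5 arrays stood above all 6 others, both control arrays stood below all 6 others, and Valpha2 and overnight control arrays overlapped. The group means were 3204 ± 680 for Vbeta5, 1254 ± 76.2 for Valpha2, 1124 ± 208 for overnight control and 868 ± 41.8 for control (SD, n = 2 each). The difference was 1.49 ± 0.23 (SE) on the log2 scale for Vbeta5 against overnight control, a 2.81-fold rise (limma adjusted p = 0.0191), and 1.85 ± 0.23 for Vbeta5 against control, a 3.60-fold rise (limma adjusted p = 0.00773). Vbeta5 against Valpha2 differed by 1.33 ± 0.23 with an adjusted p of 0.0526 from limma, just outside the threshold, and the 95% interval of that difference was 0.81 to 1.84. Next in the order of means, Valpha2 and overnight control were not told apart by limma (adjusted p = 1), nor were overnight control and control (0.36 ± 0.23, adjusted p = 0.651).

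The call of 93120_f_at against the overnight control rested on few arrays. Without Vbeta5 array 2 the difference was 1.28 with a limma adjusted p of 0.276, and without overnight control array 1 or 2 it was 1.68 or 1.31 with an adjusted p of 0.0523 or 0.0986. Over 18 alternative settings it lay between 1.28 and 1.90, with adjusted p-values between 0.00653 and 0.276 and 13 of 18 under the threshold. Against control it lay between 1.63 and 2.07, with adjusted p-values between 0.0016 and 0.0848, and the call ended without Vbeta5 array 2 (1.63, limma adjusted p = 0.0539) and without control array 1 or 2 (1.80 or 1.90, adjusted p = 0.0848 or 0.0801). Fitting without a variance trend ended every class I call, that of H2-K1 against overnight control with a limma adjusted p of 0.143. Without the 3 arrays of higher 3' to 5' ratio the H2-K1 difference was 1.90 against overnight control and 2.07 against control. The arrays dropped include the lower Vbeta5 and the higher overnight control array of this probe set. Larger differences therefore follow from the array values, and the part of RNA quality was not tested. That setting leaves 1 Vbeta5 and 1 overnight control array, and the within-group spread comes from the control arrays alone.

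**Figure D1:**
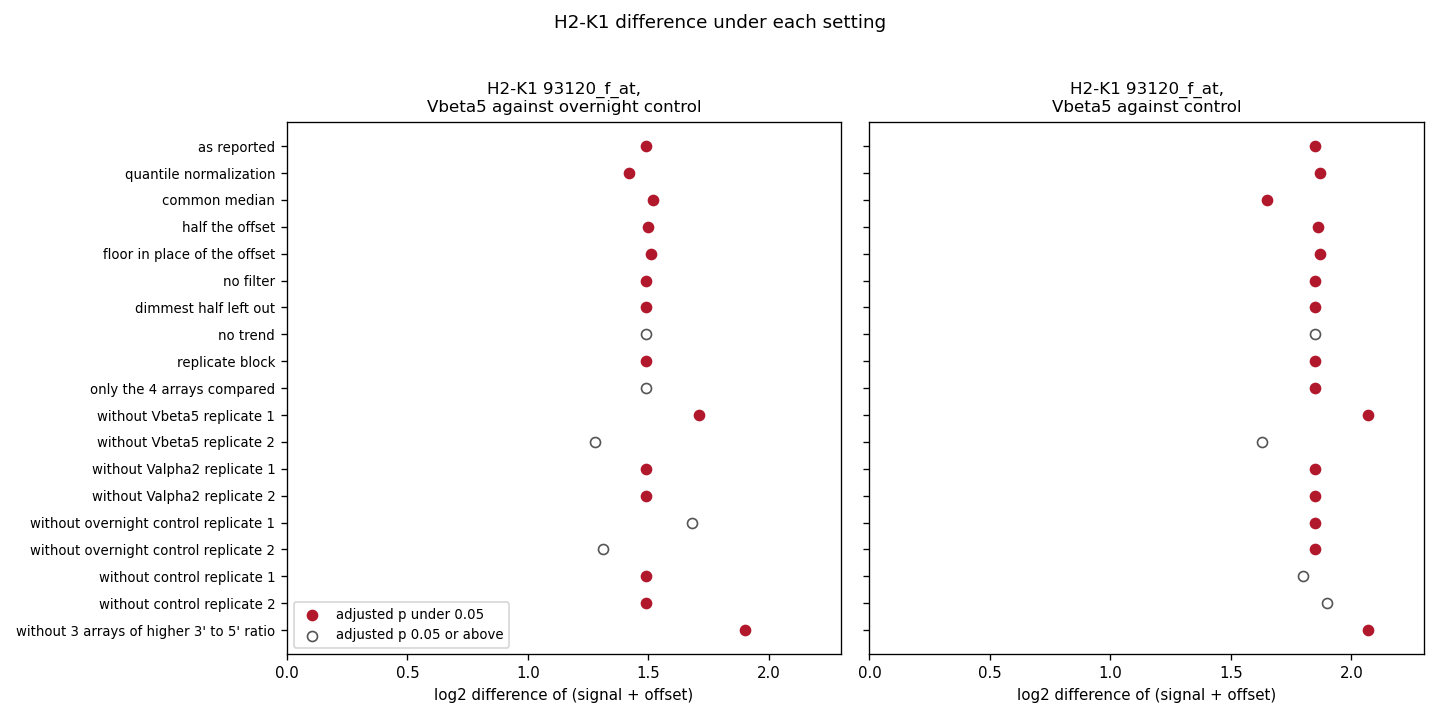
Log2 difference of H2-K1 probe set 93120_f_at under the reported and the 18 alternative settings, for Vbeta5 against overnight control (left) and Vbeta5 against control (right); filled points have a limma adjusted p under 0.05. All differences lie between 1.28 and 2.07, and the adjusted p is 0.05 or above in 5 settings on the left and 4 on the right, which include some but not all of those that leave out an array of the compared groups.

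The other H2-K1 probe sets had lower signals. Probe set 97125_f_at had 384.2 and 657.8 on Vbeta5, 364.6 and 254.8 on Valpha2, 333.2 and 184.0 on overnight control, and 124.9 and 186.0 on control arrays. Its Vbeta5 arrays again stood above all 6 others, array 1 by a narrow margin. It differed by 0.97 ± 0.38 (SE) for Vbeta5 against overnight control (limma adjusted p = 0.48) and by 1.62 ± 0.38 against control (adjusted p = 0.0786), and neither passed. Without the 3 arrays of higher 3' to 5' ratio, with 1 Vbeta5 and 1 overnight control array left, the differences were 1.75 against overnight control and 1.99 against control. It passed against control in a fit of only the 4 arrays compared (1.62, limma adjusted p = 0.0438). Leaving out overnight control array 1 or 2, which are in neither group of that comparison, kept the difference at 1.62 and changed only the spread of the fit. Probe set 97700_at had 162.8 and 140.3 on Vbeta5, 84.4 and 92.9 on Valpha2, 240.1 and 128.8 on overnight control, and 99.0 and 65.6 on control arrays. Here overnight control array 1 was the highest, and Vbeta5 overlapped the overnight control (limma adjusted p = 0.994). Against control, Vbeta5 differed by 0.78 ± 0.40 (adjusted p = 0.519). The suffix f marks probe sets whose probes are common to several members of a sequence family, so signals of such probe sets, 2 of the 3 for H2-K1 and all 3 for H2-D1, may come in part from other class I genes. Heavy chain genes also differ widely between mouse strains, and how well the probes match the alleles of these mice was not tested.

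The H2-D1 probe sets did not all move alike. Probe set 97540_f_at followed the H2-K1 order: 2174.6 and 3290.5 on Vbeta5, 1617.1 and 1310.8 on Valpha2, 1337.8 and 987.3 on overnight control, and 894.6 and 828.0 on control arrays. Vbeta5 arrays were above all others and control arrays below all others. The means were 2733 ± 789 for Vbeta5, 1464 ± 217 for Valpha2, 1163 ± 248 for overnight control and 861 ± 47.1 for control (SD, n = 2 each). It rose 3.07-fold for Vbeta5 against control, by 1.62 ± 0.26 (SE, limma adjusted p = 0.0162), and differed by 1.21 ± 0.26 against overnight control without passing (limma adjusted p = 0.0863). Without the 3 arrays of higher 3' to 5' ratio the difference from overnight control was 1.72, with 1 array left in each of these groups. The call against control ended without Vbeta5 array 2 (1.32, adjusted p = 0.117 by limma) and without control array 1 or 2 (1.67 or 1.56, adjusted p = 0.137 or 0.141).

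Probe set 97541_f_at was dim outside Vbeta5, with 157.3 and 219.8 on Vbeta5, 80.6 and 28.2 on Valpha2, 42.5 and 37.6 on overnight control, and 38.5 and 66.3 on control arrays. Its difference from overnight control had the largest estimate among the 15 tested probe sets, 1.83 ± 0.49 (SE), but its spread was wide and it did not pass (limma adjusted p = 0.194; 95% interval 0.74 to 2.92). The brightest H2-D1 probe set, 101886_f_at, had 3346.9 and 4129.2 on Vbeta5, 2372.5 and 3341.3 on Valpha2, 2326.4 and 3351.0 on overnight control, and 3262.2 and 3630.1 on control arrays. Vbeta5 and control overlapped there, and array 1 was the lower one in every group. The difference from overnight control was 0.41 ± 0.26 (adjusted p = 0.783 by limma; 95% interval -0.16 to 0.98).

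The stretches before the annotated starts of H2-K1 and H2-D1 are printed because these genes had probe sets with the same order of groups. They lie outside the transcript and bear on no probe. They come from the RefSeq promoter table (build GRCm38.p6), which gave a promoter for 7 of the 8 genes, with Tap2 the one not matched. The H2-K1 stretch is chr17:34000334-34000521 on the minus strand and the H2-D1 stretch is chr17:35262860-35263047 on the plus strand, both 5′ to 3′ along the gene. Capitals mark matches, on either strand, to the kB consensus, GAANNGAAA, TGACG and CCAAT.
H2-K1: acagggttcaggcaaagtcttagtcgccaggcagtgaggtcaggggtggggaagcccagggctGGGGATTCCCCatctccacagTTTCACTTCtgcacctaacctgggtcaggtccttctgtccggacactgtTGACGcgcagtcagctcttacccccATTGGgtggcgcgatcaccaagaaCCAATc
H2-D1: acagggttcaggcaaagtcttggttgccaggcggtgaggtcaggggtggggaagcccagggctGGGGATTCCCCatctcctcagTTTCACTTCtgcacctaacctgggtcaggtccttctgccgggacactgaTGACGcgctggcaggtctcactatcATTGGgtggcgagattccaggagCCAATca
Both stretches start at the first short run of bases that the promoters share, so they were chosen by their likeness. They span -188 to -1 from the annotated start in H2-K1 and -234 to -47 in H2-D1. Of 187 aligned bases 169 (90.4%) were identical, and the longest run held in common had 47 bases. This identity describes the stretches as cut and not the whole promoters. Motifs were counted over whole promoters, 250 bases before the annotated start and 50 bases from it on, for members and all others alike. The stretches printed are parts of these. The kB consensus, the form of site that NF-kB binds, was found in 8.46% of all 32851 promoters and in 4 of the 7 members with a promoter (H2-K1, H2-D1, B2m and Calr). GAANNGAAA, a form in which interferon-responsive sites of class I genes can be written and added to the search after the promoters had been read, was in 7.52% of all promoters and in 2 members, H2-K1 and H2-D1. TGACG, the core of a cAMP response element, was in 20.8% of all and 5 of the 7, and CCAAT was in 37.4% of all and 7 of the 7. A match is a description of the letters and no evidence of binding.

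B2m, the light chain of every class I molecule, was lowest in control. Its only probe set, 93088_at, had 4132.1 and 6659.2 on Vbeta5, 3931.3 and 3881.1 on Valpha2, 4495.4 and 3522.1 on overnight control, and 2581.3 and 2863.5 on control arrays. Both control arrays stood below all 6 others, while Vbeta5 array 1 lay between the overnight control arrays. The means were 5396 ± 1787 for Vbeta5, 3906 ± 35.5 for Valpha2, 4009 ± 688 for overnight control and 2722 ± 200 for control (SD, n = 2 each). No comparison passed: the differences were 0.94 ± 0.26 (SE) for Vbeta5 against control (limma adjusted p = 0.132), 0.40 ± 0.26 for Vbeta5 against overnight control (adjusted p = 0.809) and 0.55 ± 0.26 for overnight control against control (adjusted p = 0.569). Without the 3 arrays of higher 3' to 5' ratio, the difference of Vbeta5 from control was 1.29, with 1 Vbeta5 array left.

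The promoter stretch of B2m, chr2:122147507-122147686 on the plus strand (GRCm38.p6, RefSeq), is shown for comparison with the heavy chains, with capitals for matches to GAAANNGAA, the kB consensus, TGACG and CCAAT on either strand.
B2m: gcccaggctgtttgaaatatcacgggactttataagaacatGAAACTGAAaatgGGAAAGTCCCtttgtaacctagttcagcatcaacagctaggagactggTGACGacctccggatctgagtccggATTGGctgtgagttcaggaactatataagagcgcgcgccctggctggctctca
GAAANNGAA, a core of the interferon-stimulated response element, was in 8.56% of all promoters and in 1 of the 7 members, B2m. In the B2m stretch this match lies a few bases before the kB match, whereas in both heavy chain stretches the kB match comes first, followed by the GAANNGAAA match.

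**Figure D2:**
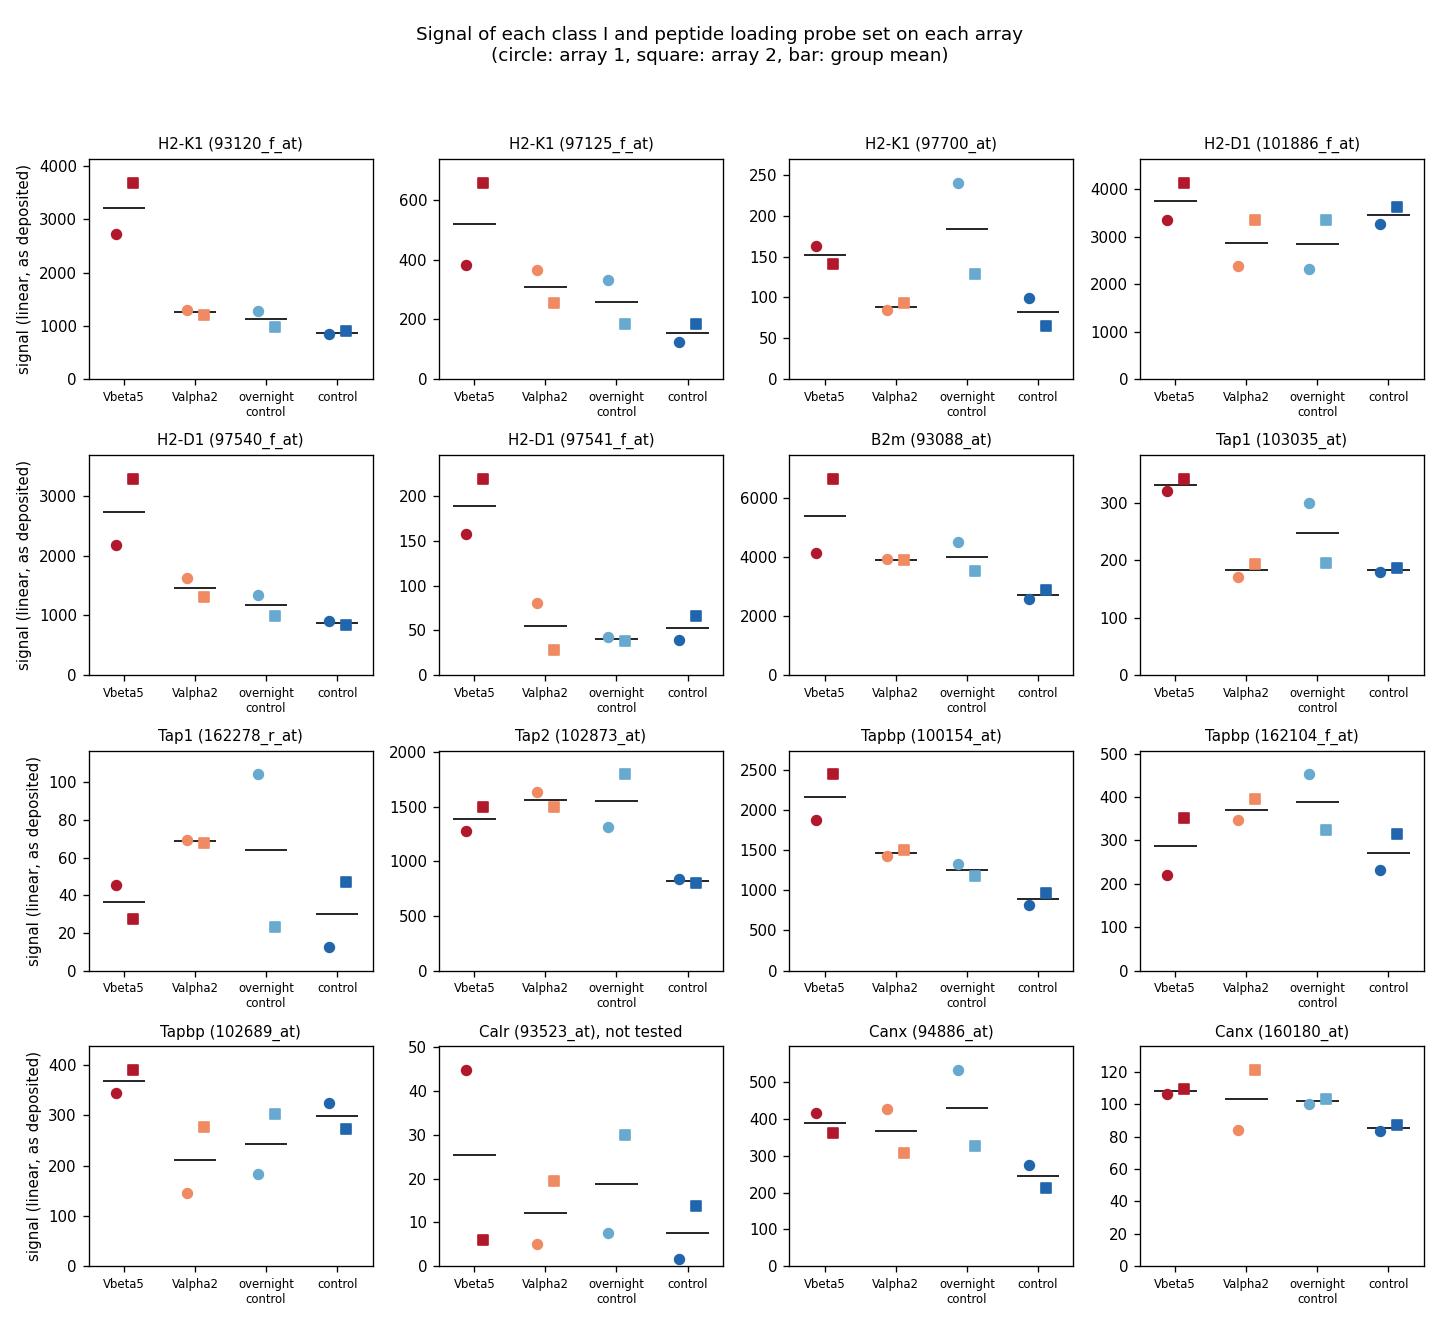
Linear signal, as deposited, of each of the 16 probe sets on each of the 8 arrays, by group (circles array 1, squares array 2, bars the group mean). H2-K1 93120_f_at and H2-D1 97540_f_at stand highest on both Vbeta5 arrays, Tap2 102873_at is lowest on both control arrays, and Calr stays between 1.6 and 44.8.

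The transporter genes differed from each other. Tap1 by its brighter probe set, 103035_at, had 320.4 and 342.4 on Vbeta5, 171.3 and 193.9 on Valpha2, 300.5 and 194.7 on overnight control, and 178.6 and 187.1 on control arrays. Vbeta5 arrays were above all others, but overnight control array 1 came close. The differences were 0.43 ± 0.30 (SE) for Vbeta5 against overnight control (limma adjusted p = 0.845), 0.81 ± 0.30 against Valpha2 (adjusted p = 0.458) and 0.80 ± 0.30 against control (adjusted p = 0.331), none of which passed. The second Tap1 probe set, 162278_r_at, had 45.7 and 27.4 on Vbeta5, 69.5 and 68.0 on Valpha2, 104.3 and 23.3 on overnight control, and 12.6 and 47.1 on control arrays, with the extremes on array 1 of the overnight control and of the control. The suffix r marks a probe set built with fewer of the usual selection rules.

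Tap2, the partner of Tap1 in the transporter, separated the control from the rest. Its probe set 102873_at had 1278.4 and 1499.5 on Vbeta5, 1629.6 and 1492.7 on Valpha2, 1312.0 and 1797.1 on overnight control, and 834.1 and 800.5 on control arrays. The first 3 groups overlapped one another and all of their arrays stood above both control arrays. The difference was 0.75 ± 0.23 (SE) for Vbeta5 against control (limma adjusted p = 0.18), 0.92 ± 0.23 for Valpha2 against control (adjusted p = 0.168) and 0.90 ± 0.23 for overnight control against control (adjusted p = 0.169), and none passed. The intervals at 95% were 0.25 to 1.25, 0.42 to 1.42 and 0.40 to 1.40.

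Tapbp, which encodes tapasin, rose with Vbeta5 against control by its brightest probe set. Probe set 100154_at had 1878.9 and 2447.9 on Vbeta5, 1433.2 and 1503.1 on Valpha2, 1330.7 and 1176.5 on overnight control, and 820.6 and 970.4 on control arrays. No group overlapped another, and the order was Vbeta5, Valpha2, overnight control, control. The means were 2163 ± 402 for Vbeta5, 1468 ± 49.4 for Valpha2, 1254 ± 109 for overnight control and 896 ± 106 for control (SD, n = 2 each). The rise against control was 2.38-fold, 1.25 ± 0.22 (SE, limma adjusted p = 0.0205). Against overnight control the difference was 0.77 ± 0.22 (adjusted p = 0.239 by limma) and against Valpha2 0.54 ± 0.22 (adjusted p = 0.524), and neither passed, nor did any neighbours in this order. The call against control ended when arrays were shifted to a common median (1.05, limma adjusted p = 0.127), a setting that moved the median of all tested probe sets in this comparison by -0.20. It also ended without Vbeta5 array 1 or 2 (1.44 or 1.06, adjusted p = 0.0549 or 0.19) and without control array 1 or 2 (1.13 or 1.37, adjusted p = 0.256 or 0.134).

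The other Tapbp probe sets did not follow it throughout. Probe set 102689_at had 344.2 and 390.0 on Vbeta5, 144.8 and 276.1 on Valpha2, 183.1 and 302.5 on overnight control, and 323.4 and 272.9 on control arrays, with Vbeta5 above all others and a difference of 0.60 ± 0.36 (SE) from overnight control (limma adjusted p = 0.756). Probe set 162104_f_at had 219.7 and 351.6 on Vbeta5, 346.3 and 395.4 on Valpha2, 452.5 and 324.3 on overnight control, and 231.2 and 313.8 on control arrays. Its Vbeta5 array 1 was the lowest of the 8.

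The ER lectin chaperones showed no call. Calr, probe set 93523_at, had 44.8 and 5.9 on Vbeta5, 5.1 and 19.4 on Valpha2, 7.6 and 30.0 on overnight control, and 1.6 and 13.7 on control arrays. On 5 of the 8 arrays the signal was under 17, the offset added before the log, and no difference is given for it. Canx by its brighter probe set, 94886_at, had 416.1 and 361.7 on Vbeta5, 426.5 and 306.8 on Valpha2, 533.2 and 326.9 on overnight control, and 275.7 and 213.0 on control arrays. Control was below all 6 others, and the other groups overlapped one another. The differences were 0.64 ± 0.31 (SE) for Vbeta5 against control (limma adjusted p = 0.493) and 0.75 ± 0.31 for overnight control against control (adjusted p = 0.514), which did not pass. The second Canx probe set, 160180_at, had 106.2 and 109.5 on Vbeta5, 84.2 and 121.2 on Valpha2, 99.9 and 103.2 on overnight control, and 83.6 and 87.2 on control arrays. Vbeta5 against control differed by 0.29 ± 0.37 (adjusted p = 0.826; 95% interval -0.52 to 1.10).

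ER chaperone genes such as Calr are known targets of the response to unfolded protein, and the ER stress element through which it acts, CCAAT and CCACG with 9 bases between, was found in both of their promoters and in 0.119% of all promoters. The stretches are chr11:50325780-50325838 for Canx and chr8:84847055-84847113 for Calr, both on the minus strand (GRCm38.p6, RefSeq), with the element in capitals, which in Calr runs on the opposite strand.
Canx: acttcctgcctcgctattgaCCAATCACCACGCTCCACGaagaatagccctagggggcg
Calr: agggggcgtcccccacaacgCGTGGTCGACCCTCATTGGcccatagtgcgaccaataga
None of the other 5 members with a promoter held this element.

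**Figure D3:**
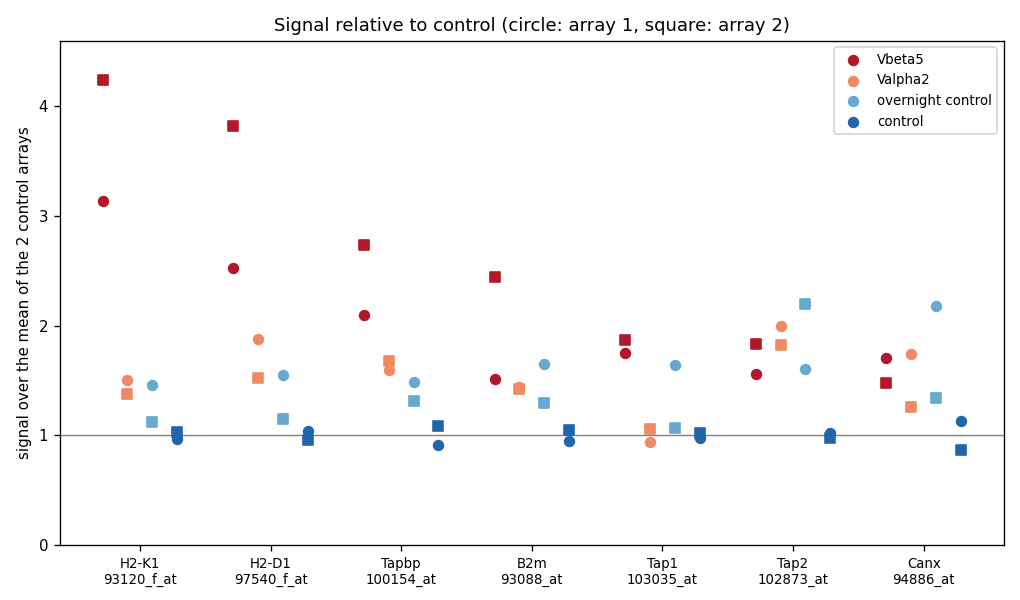
Signal of 7 probe sets on each array divided by the mean of both control arrays, by gene and group (circles array 1, squares array 2). Each gene is shown by a probe set that passed in a comparison where it has one, and otherwise by its brightest. H2-K1 93120_f_at, H2-D1 97540_f_at and Tapbp 100154_at stand highest with Vbeta5. For B2m, Tap2 and Canx the Vbeta5 arrays overlap those of the overnight control, and the control arrays are the lowest. The brightest H2-D1 probe set, 101886_f_at, is not shown, and its Vbeta5 and control arrays overlap.

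Set side by side, the 15 tested probe sets gave few calls. Against overnight control, Vbeta5 had 1 probe set higher, H2-K1 93120_f_at, 0 lower and 14 that did not pass, where 0.616% of all 8281 tested passed in either direction by limma. The median difference was 0.41 over the 15 and -0.01 over all tested, with 10 of 15 above 0 and 48.8% of all, and 5 of the 15 turned sign under an alternative setting. Against control, Vbeta5 had 3 higher (H2-K1 93120_f_at, H2-D1 97540_f_at and Tapbp 100154_at), 0 lower and 12 that did not pass, against 1.61% of all tested. The median was 0.78 over the 15 and 0.08 over all, and 15 of 15 were above 0, against 57.0% of all, and 3 of the 15 turned sign under an alternative setting (H2-D1 101886_f_at, Tap1 162278_r_at and Tapbp 162104_f_at). These comparisons share the Vbeta5 arrays, so their calls are not separate counts. Without the 3 arrays of higher 3' to 5' ratio, the median against overnight control was 0.35 over the 15 and 0.06 over all tested. Against control it was 0.85 over the 15 and 0.09 over all. That setting leaves 1 Vbeta5 and 1 overnight control array, so only sizes are given for it here.

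For Vbeta5 against Valpha2, 0 of 15 passed by limma, against 0.278% of all tested, and 6 had an unadjusted p under 0.05, as had 8.19% of all. The median was 0.54 over the 15 and 0.02 over all, with 12 of 15 above 0, and 3 of the 15 turned sign under an alternative setting. For H2-K1 93120_f_at the difference stayed at 1.33 without overnight control array 1 or 2. These arrays are in neither group compared and enter only the spread of the fit. Without the 3 arrays of higher 3' to 5' ratio, which leaves 1 array in each group compared, the difference was 1.61. For Valpha2 against overnight control, 0 of 15 passed by limma, 0 had an unadjusted p under 0.05, against 1.62% of all, and 0% of all tested passed. The median there was 0.01 over the 15 and -0.02 over all. For Valpha2 against control, 0 passed and 5 had an unadjusted p under 0.05, where 0.399% of all tested passed and 7.46% had such a p, with a median of 0.52 against 0.07 over all. For overnight control against control, 0 passed and 3 had an unadjusted p under 0.05, where 0.181% of all passed and 9.0% had such a p, with a median of 0.48 against 0.10 over all.

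**Figure D4:**
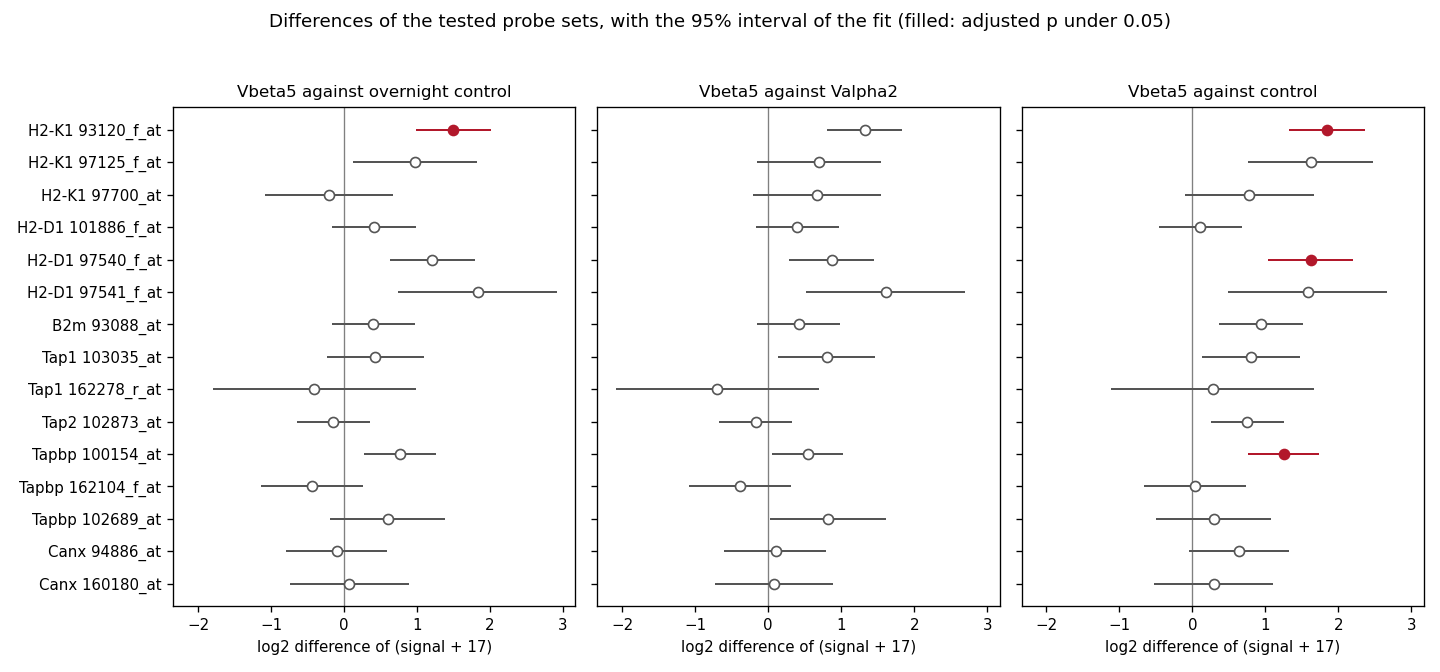
Log2 difference of (signal + 17) for the 15 tested probe sets, with the 95% interval of the limma fit, for Vbeta5 against overnight control, Valpha2 and control; filled points have an adjusted p under 0.05. H2-K1 93120_f_at is filled on the left and right panels, at 1.49 and 1.85, and H2-D1 97540_f_at and Tapbp 100154_at on the right panel, at 1.62 and 1.25.

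By order alone, with no test, both Vbeta5 arrays lay above both overnight control arrays in 8 of 15 probe sets, against 15.9% of all tested, and above both control arrays in 12 of 15, against 29.3% of all. They lay above both Valpha2 arrays in 10 of 15, against 21.8%. Both Valpha2 arrays lay above both overnight control arrays in 1 of 15, against 10.5%, and above both control arrays in 9 of 15, against 25.8%. Both overnight control arrays lay above both control arrays in 10 of 15, against 21.6%. A pair of further counts was chosen after the values were seen. Both Vbeta5 arrays stood above all 6 others in 7 of 15, against 6.1% of all tested, and these were H2-K1 93120_f_at and 97125_f_at, H2-D1 97540_f_at and 97541_f_at, Tap1 103035_at, and Tapbp 100154_at and 102689_at. Both control arrays stood below all 6 others in 6 of 15, against 7.52% of all, and these were H2-K1 93120_f_at, H2-D1 97540_f_at, B2m, Tap2, Tapbp 100154_at and Canx 94886_at. Probe sets of a gene, and f probe sets of related genes, are not separate measurements of different transcripts.

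Further genes of the pathway were taken from 5 lists, each gene by its brightest tested probe set. Of 22 other heavy chain genes listed, 11 were tested, and 0 passed in any of the 6 comparisons, with a median difference of -0.01 for Vbeta5 against overnight control. The non-classical heavy chain genes Hfe, an iron regulator, and Mr1, which presents vitamin metabolites, had the largest absolute t there: Hfe had signals of 38.4 and 16.8 on Vbeta5 against 85.3 and 225.0 on overnight control arrays (-1.86 ± 0.55 SE, limma adjusted p = 0.261), and Mr1 had 70.6 and 109.2 against 169.2 and 215.9 (-0.99 ± 0.33, adjusted p = 0.353). Neither passed, and in both the groups did not overlap. On control arrays Hfe had 19.2 and 17.5, near the offset of 17, and on Valpha2 arrays 62.0 and 112.6. Its Vbeta5 arrays thus overlapped control, and overnight control had the highest mean. Without the 3 arrays of higher 3' to 5' ratio the Hfe difference from overnight control was -2.84, between 1 array at 16.8 and 1 at 225.0.

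Of 12 genes of peptide supply and editing, 8 were tested and 0 passed in any comparison, with a median of 0.59 for Vbeta5 against overnight control, where the median of all 6094 genes was -0.01. The immunoproteasome subunit gene Psmb9, a neighbour of Tap1, had 1189.2 and 1442.0 on Vbeta5 against 520.1 and 547.7 on overnight control arrays (1.27 ± 0.27 SE, limma adjusted p = 0.0794), and Psmb10 had 1496.2 and 1642.4 against 850.0 and 687.9 (1.02 ± 0.24, adjusted p = 0.125). In both genes the Vbeta5 arrays stood clear of the overnight control without passing. Against control the differences were smaller, 0.67 ± 0.27 for Psmb9 (limma adjusted p = 0.369) and 0.79 ± 0.24 for Psmb10 (adjusted p = 0.195). The median of the list there was 0.35, and that of all genes 0.06. Of 24 genes of the ER lectin cycle and folding, 18 were tested and 0 passed in any comparison, with medians of 0.33 for Vbeta5 against overnight control and -0.06 against control. The glucosidase gene Mogs had 851.2 and 1056.3 against 492.4 and 589.0 (0.80 ± 0.28, adjusted p = 0.37), and Edem1, of ER degradation, had 192.7 and 224.0 against 299.7 and 470.8 (-0.81 ± 0.29, adjusted p = 0.417).

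Of 21 transcription factors tied to class I or ER stress genes, 13 were tested. Irf1, an interferon regulatory factor that binds class I promoters, passed for Vbeta5 against overnight control, with 1063.3 and 1365.9 on Vbeta5 against 332.4 and 236.2 on overnight control arrays (2.04 ± 0.38 SE, limma adjusted p = 0.0463). That call ended in 12 of the 18 alternative settings, among them leaving out any 1 array of Vbeta5 (2.22 or 1.86, adjusted p = 0.11 or 0.428), overnight control (2.27 or 1.81, adjusted p = 0.108 or 0.158) or control (2.04 each, adjusted p = 0.0893 or 0.0886), while the difference stayed between 1.81 and 2.45. Irf9, the DNA-binding part of the interferon-activated complex ISGF3, passed for Vbeta5 against control, with 817.5 and 1220.5 on Vbeta5 against 314.6 and 339.0 on control arrays (1.56 ± 0.27, limma adjusted p = 0.0205). Its Valpha2 arrays, at 927.1 and 786.3, overlapped those of Vbeta5. Valpha2 differed from control by 1.34 ± 0.27 without passing (limma adjusted p = 0.0829). Irf9 did not pass for Vbeta5 against overnight control (1.03 ± 0.27, limma adjusted p = 0.194). Without the 3 arrays of higher 3' to 5' ratio that difference was 1.55, with 1 array left in each group. Its call against control ended at a common median (1.37, limma adjusted p = 0.0624), without the variance trend (adjusted p = 0.0948), without Vbeta5 array 2 (1.28, adjusted p = 0.19) and without either control array (1.51 or 1.62, adjusted p = 0.207 or 0.145). The median of the list was -0.03 for Vbeta5 against overnight control and 0.07 against control.

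Of 13 class II and class II loading genes, 9 were tested. H2-DMa, which edits the peptides of class II molecules, passed for Vbeta5 against control, with 1115.7 and 1012.2 on Vbeta5 against 373.8 and 389.4 on control arrays (1.44 ± 0.25 SE, limma adjusted p = 0.0205), and its call ended at a common median (1.24, adjusted p = 0.0698), without the variance trend (adjusted p = 0.0966), without either Vbeta5 array (1.37 or 1.51, adjusted p = 0.139 or 0.108) and without either control array (1.41 or 1.47, adjusted p = 0.207 or 0.156). Against overnight control it differed by 0.61 ± 0.25 (limma adjusted p = 0.523), and H2-DMb2 by -1.30 ± 0.50 (adjusted p = 0.467). H2-DMb2 was dim, with means of 33.7 on Vbeta5, 28.5 on Valpha2 and 20.7 on control arrays. Overnight control was its high group, with a mean of 106. The list's median was 0.47 for Vbeta5 against overnight control and 0.78 against control.

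Summed markers of other cell types differed in level between some groups, though of 37 such markers on the arrays 22 were tested, and 0 of these passed in any comparison by limma. The summed signal of 9 macrophage and monocyte markers was 874 to 992 on Vbeta5, 641 to 650 on Valpha2, 589 to 1348 on overnight control and 526 to 530 on control arrays. For 6 of 8 dendritic cell markers on the arrays it was 1016 to 1167 on Vbeta5, 633 to 845 on Valpha2, 506 to 1407 on overnight control and 533 to 719 on control arrays, and for 4 of 7 NK and gamma delta T cell markers 486 to 685, 595 to 680, 527 to 737 and 245 to 269 in the same order of groups. In these 3 lists Vbeta5 and control did not overlap, and Vbeta5 and overnight control did. For 7 of 8 B cell markers the sums were 483 to 547 on Vbeta5, 696 to 888 on Valpha2, 788 to 1009 on overnight control and 372 to 570 on control arrays. For 8 of 9 thymic epithelium markers they were 394 to 527, 431 to 548, 394 to 566 and 311 to 437, and for 3 of 6 erythroid markers 245 to 294, 144 to 464, 251 to 344 and 169 to 425, again in that order. No marker was at 0 on an array, and Lyz2 of the macrophage list was under 17 on all 8. The part of other cells in the class I differences was not tested.

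The genes whose signal ran most like that of a member were found by Pearson's r of log2(signal + 17) over the 8 arrays, among 7355 tested probe sets with a name; the 8 points hold the groups themselves, and r is a description. For H2-K1 93120_f_at they were Nr4a2 (r = 0.99), Mybbp1a (0.989) and Gbp2 (0.985). For B2m they were Pfkp (0.963), Sfmbt2 (0.956) and Iigp1 (0.953), and for Tapbp 100154_at Pfkp (0.986), Ndfip1 (0.957) and Pou2af1 (0.951). The same phosphofructokinase probe set, of the gene Pfkp, headed both of these. For Tap1 103035_at they were Klf9 (0.97), Nsmf (0.968) and Fubp1 (0.964), and for Tap2 Fam216a (0.955), Tpp1 (0.951) and Ccng1 (0.938). For H2-D1 by its brightest probe set, 101886_f_at, they were Xpo6 (0.988), Snapc3 (0.974) and Nop58 (0.972), for Canx Polr1c (0.968), Fgf11 (0.966) and Csf1r (0.965), and for the dim Calr probe set Ltb4r1 (0.926), Rala (0.893) and Pip4k2c (0.89).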

How the data were processed

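The deposited table holds intensity values of 12488 Affymetrix-type probe sets on 8 arrays, which the authors had normalized, per the labels; the sources used here do not give software, method or target. The 66 control probe sets were left out of tests. Gene symbols are those of the platform annotation, brought up to date by gene ID against RefSeq (GRCm38.p6): of 12422 probe sets, 10833 had 1 symbol, 396 several and 1193 none. Signals were used as deposited. An offset of 17, the 20th percentile of the positive values, was added before log2, which understates differences of dim probe sets, and the dimmest 33.3% by mean were left out. limma 3.58.1 in R 4.3.3 fitted 1 mean per group over all 8 arrays (4 residual and 6.328 prior degrees of freedom, variance trend), with Benjamini-Hochberg adjustment within each of 6 comparisons; the script was tested on simulated data. With 2 arrays a group, an exact permutation test cannot reach the threshold, and none was run. The number of arrays limits the precision, and no detection calls were used.

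The members, lists and named genes were chosen with earlier results of these data known. Members were all named; of the lists, genes past the threshold and otherwise the 2 with the largest absolute t for Vbeta5 against overnight control; and per member the 3 genes of highest r. Of 90 pairs of a tested probe set and a comparison, 30 turned sign under an alternative; those differences are not given in numbers. Alternatives were quantile normalization, a common median, a smaller offset, a floor, no filter, a stricter filter, no trend, the array number as a block, only the 4 arrays compared, and leaving out each array. Leaving out 3 arrays of higher 3' to 5' ratio was chosen after seeing the data.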

Additional observations from a re-analysis of the deposited data

How the results depend on the processing

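Results are counts of the 15 tested probe sets past the threshold by limma. For Vbeta5 against overnight control (1 as reported) the count was 0 without the variance trend and 0 in a fit of only the 4 arrays compared, 2 with the replicate number as a block and 2 without the 3 arrays of higher 3' to 5' ratio, and leaving out each array in turn gave 0 to 1. For Vbeta5 against Valpha2 (0 as reported) it was 1 with the block, 1 without those 3 arrays and 0 to 1 when each array was left out. For Vbeta5 against control (3 as reported) it was 0 without the trend, 5 without those 3 arrays and 0 to 4 when each array was left out. It was 2 at a common median and 4 in a fit of only the 4 arrays compared. The other 3 comparisons had 0 in every setting run. The array numbers are not stated to pair arrays: deviations of same-numbered arrays from their group means correlated at 0.104 to 0.345 across probe sets, and with the block the count for Vbeta5 against control was 4. The block added H2-K1 93120_f_at against Valpha2 (adjusted p = 0.018), H2-D1 97540_f_at against overnight control (0.0376), H2-K1 97125_f_at against control (0.0414) and, outside the members, Psmb9 against overnight control (0.028). A group left with 1 array is assumed to vary like the others. Without the 3 arrays this holds for Vbeta5, Valpha2 and overnight control, so the counts of that setting rest on single arrays. The counts over all 8281 probe sets moved too: 124 with the block, 28 at a common median, 28 with only the 4 arrays, 0 without the trend, 144 without the 3 arrays and 0 to 54 when each array was left out for Vbeta5 against overnight control (51 as reported), and in the same order 235, 90, 209, 20, 293 and 0 to 181 for Vbeta5 against control (133 as reported). For Vbeta5 against Valpha2 (23 as reported) they were 90 with the block, 41 without the 3 arrays and 0 to 31 when each array was left out. At a common median, with only the 4 arrays compared and without the trend they were 0 each. Shifting arrays to a common median moved the median of all probe sets by -0.20 for Vbeta5 against control, by -0.14 for Valpha2 against control and by -0.23 for overnight control against control. No member difference given in numbers turned sign under these settings.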

Other observations

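Of 3 probe sets that the annotation maps to several genes, a class I member among them, the brightest is 102161_f_at, annotated to 10 genes that include H2-K1 and H2-D1. It ran the other way: 1918.4 and 2580.2 on Vbeta5, 2609.0 and 2520.5 on Valpha2, 2128.3 and 2814.6 on overnight control, and 3684.9 and 4116.6 on control arrays, so that both control arrays were the highest of the 8. The log2 difference was -0.80 for Vbeta5 against control (limma adjusted p = 0.161), -0.60 for Valpha2 against control (adjusted p = 0.553) and -0.67 for overnight control against control (adjusted p = 0.425), and none passed. The gene behind this signal cannot be named from a probe set shared by 10 genes. The other probe sets were dim: 97174_r_at, annotated to 4 genes, stayed between 31.8 and 64.4, and 95773_at, annotated to 5, between 8.8 and 115.9 with the highest value on overnight control array 1.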
